A study of Homo sapiens with 12 samples.

Results

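The untreated small RNA libraries (Input) of a tRNA sequencing experiment on DLD1 cells, a human colorectal cancer line, were examined for how many reads each tRNA gave, how these reads were spread along the tRNA, and how often a listed adenosine was read as another base. They are 4 of the 12 libraries of the series, chosen by their labels. In OE-WT cells TRMT6 and TRMT61A were overexpressed by lentiviral transduction, and CTRL cells were transduced with an empty vector, with 2 replicates of each condition. The remaining libraries were antibody-enriched and are not described here. Both groups were cultured in duplicate, and nothing in the sources states that the duplicates were independent transductions, so the p-values measure the spread between these libraries. The table holds tRNA positions only, so neither the overexpressed transcripts nor colon markers could be checked in it.

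TRMT6 and TRMT61A together form a methyltransferase that places a methyl group on N1 of an adenosine in the T loop, the position named A58 in the standard tRNA numbering (N1-methyladenosine, m1A). This mark lies on the face of the base that pairs, so reverse transcriptase may stop there or insert a wrong base. In budding yeast, m1A at A58 is known to protect the initiator tRNA, which starts translation, from decay. An Input library is made without enrichment and thus serves as the measure of how much of each tRNA was sequenced.

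The table lists 44 adenosines in 29 tRNAs of 12 isotypes (the amino acid carried, with the initiator counted apart) and 16 anticodons. Of these adenosines, 8 are A58 and 17, these included, lie within 1 nt of it. Each listed adenosine and sequence matched the human genome (hg38), and 29 of 29 tRNAs matched a RefSeq tRNA gene. The tRNA genes overlap another annotated gene in 13 cases and none in 16. Positions below are counted from 1 at the 5′ end of the listed sequence, where A58 is position 57 in a tRNA of 72 nt. The sequences of the tRNAs on which the results turn are shown here, 5′ to 3′, with listed adenosines in capitals. The 3 tRNA-Asp-GTC sequences come first because they held most reads and are near-copies of each other, tRNA-Glu-TTC-2-1 and tRNA-Gly-GCC-2-1 because both conditions stood apart at some of their positions, tRNA-iMet-CAT-1-1 as the initiator and tRNA-Lys-TTT-3-1 for its A9.
tRNA-Asp-GTC-2-5: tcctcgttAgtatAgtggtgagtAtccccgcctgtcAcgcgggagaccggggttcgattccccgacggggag
tRNA-Asp-GTC-3-1: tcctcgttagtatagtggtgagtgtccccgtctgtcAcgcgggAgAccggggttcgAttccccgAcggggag
tRNA-Asp-GTC-1-1: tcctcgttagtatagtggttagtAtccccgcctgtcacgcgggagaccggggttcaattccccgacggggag
tRNA-Glu-TTC-2-1: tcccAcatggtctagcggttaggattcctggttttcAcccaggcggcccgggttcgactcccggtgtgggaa
tRNA-Gly-GCC-2-1: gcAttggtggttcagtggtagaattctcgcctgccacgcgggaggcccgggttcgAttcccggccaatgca
tRNA-iMet-CAT-1-1: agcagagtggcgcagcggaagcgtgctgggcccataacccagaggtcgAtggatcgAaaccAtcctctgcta
tRNA-Lys-TTT-3-1: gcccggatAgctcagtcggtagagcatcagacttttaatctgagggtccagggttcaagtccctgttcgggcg

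On hg38, tRNA-Asp-GTC-2-5 lies at chr1:161470415-161470486 on the minus strand, inside an exon of a long noncoding RNA. tRNA-Asp-GTC-3-1 lies at chr6:27583457-27583528 on the minus strand, outside other annotated genes, and tRNA-Asp-GTC-1-1 at chr12:98503503-98503574 on the plus strand, opposite an intron of LINC02453. tRNA-Glu-TTC-2-1 is at chr13:44917927-44917998 on the minus strand, tRNA-iMet-CAT-1-1 at chr1:153671250-153671321 and tRNA-Lys-TTT-3-1 at chr1:204506527-204506599 on the plus strand, all 3 outside other annotated genes. tRNA-Gly-GCC-2-1 is at chr1:161523847-161523917 on the minus strand, opposite an exon of FCGR2A. tRNA-Asp-GTC-2-5 and tRNA-Asp-GTC-3-1 differ at 2 positions, A24G and C31T with the base of the first tRNA given first, and tRNA-Asp-GTC-1-1 differs from tRNA-Asp-GTC-2-5 at T20G and A56G. A read that covers none of these positions fits more than 1 of them, so the split of reads within tRNA-Asp is uncertain. The entry tRNA-Asp-GTC-2-5 lists 11 isodecoder genes in the table, and the other entries of tRNA-Asp list 1 each.

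For the share of each tRNA, the listed position with the highest summed count was taken, and its reads were divided by the sum of these positions over the 29 tRNAs. These sums were 26464 and 22294 reads in OE-WT and 12438 and 24840 reads in CTRL. CTRL replicate 1 was thus the shallowest library. The sums cover listed tRNAs only and are not the depth of the libraries, and the listed position differs between tRNAs, so a share is compared between libraries and not between tRNAs. Fewer molecules of a tRNA in the cell and fewer molecules that are copied into a readable fragment cannot be told apart here.

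The listed Input reads were dominated by tRNA-Asp in both conditions. It made up 88.2% and 87.5% of the reads in OE-WT and 84.1% and 87.8% in CTRL, or 87.9% ± 0.442 in OE-WT and 85.9% ± 2.67 in CTRL (SD, n = 2 each; exact permutation test, two-sided, p = 0.667). The groups overlapped, and the low value was that of CTRL replicate 1, whose 95% Clopper-Pearson interval was 83.4% to 84.7%. Such intervals cover counting error only.

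tRNA-Glu, all of it with the TTC anticodon, was the isotype with the next most reads and was lower in both OE-WT libraries than in both CTRL libraries. Its share was 8.19% and 8.47% in OE-WT against 9.94% and 9.03% in CTRL, which gives 8.33% ± 0.199 in OE-WT and 9.49% ± 0.639 in CTRL (SD, n = 2 each; exact permutation test, two-sided, p = 0.33, the smallest that 2 against 2 libraries allow). In edgeR's quasi-likelihood test over all isotypes the log2 fold change was −0.19 (95% interval −0.54 to 0.17, adjusted p = 0.698). Its direction turned with the scaling, to 0.12 with DESeq2's size factors and 0.0070 with tRNA-Asp left out of the total. The gap between the groups was therefore not larger than the spread that the test allows.

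The other 10 isotypes together held 3.64% and 3.98% of the reads in OE-WT and 6.00% and 3.13% in CTRL (exact permutation test, two-sided, p = 1). Both OE-WT libraries lay between the CTRL libraries. In the plot of shares by isotype, CTRL replicate 1 is on top from glutamate to leucine.

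**Figure D1:**
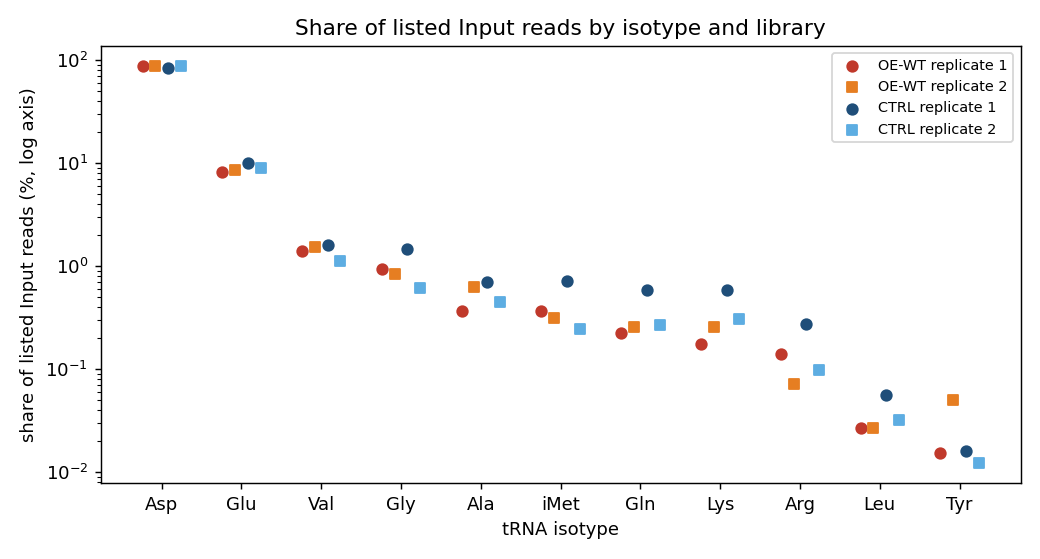
Share of listed Input reads (%, log axis) of the 11 isotypes with 20 or more reads summed over libraries, with 1 point per library, OE-WT left and CTRL right within each isotype. tRNA-Asp lies between 84.1% and 88.2% in all 4 libraries, and CTRL replicate 1 has the highest share in 9 of the 11 isotypes.

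No isotype passed the test between the conditions. Of the 11 isotypes with 20 or more summed reads, 0 were called by edgeR at an adjusted p under 0.05 (0%), 0 had an unadjusted p under 0.05, and the lowest adjusted p was 0.698. tRNA-Lys had the lowest unadjusted p, with a share of 0.174% and 0.256% in OE-WT against 0.587% and 0.306% in CTRL and a log2 fold change of −1.04 (95% interval −2.64 to 0.56). Both OE-WT shares of tRNA-Lys lay below both CTRL shares.

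Groups did not overlap in 4 of the 11 isotypes, all of them lower in OE-WT (36.4%), and in none with OE-WT above. Besides Glu and Lys these were Gln and Leu. tRNA-Gln had 0.223% and 0.256% in OE-WT against 0.587% and 0.270% in CTRL (log2 fold change −0.82), and tRNA-Leu had 0.0265% and 0.0269% against 0.0563% and 0.0322% (log2 fold change −0.65), from no more than 8 reads in a library. In each of these isotypes the highest value was that of CTRL replicate 1, and without it the log2 fold change was −0.18 for Gln, −0.52 for Lys and −0.27 for Leu.

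The shares of the remaining isotypes overlapped between the conditions. The log2 fold change was 0.03 for Asp, 0.11 for Val, −0.21 for Gly, −0.21 for Ala, −0.47 for iMet and −0.75 for Arg. For tRNA-Tyr it was 1.18 with a 95% interval of −0.97 to 3.33, from 4 and 11 reads in OE-WT and 2 and 3 reads in CTRL, and it was 0.14 without OE-WT replicate 2. The single tRNA-Ile entry had 0 and 1 reads in OE-WT and 1 and 0 reads in CTRL and was not tested, where a count of 0 allows a share of up to 0.0113% in OE-WT replicate 1 and 0.0121% in CTRL replicate 2.

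By anticodon, 0 of 15 were called by edgeR (0%; 0 at an unadjusted p under 0.05; lowest adjusted p = 0.791). The groups did not overlap for 4 anticodons, which were all lower in OE-WT (26.7%): Glu-TTC, Lys-TTT, Gln-CTG and Leu-CAA. Among isotypes read by more than 1 anticodon, Gln-CTG had 0.0907% and 0.0763% in OE-WT against 0.257% and 0.129% in CTRL (log2 fold change −1.17, 95% interval −2.89 to 0.54). Gln-TTG, the other glutamine anticodon, had 0.132% and 0.179% in OE-WT against 0.330% and 0.141% in CTRL (−0.57, −2.18 to 1.04). The intervals of the 2 anticodons overlap widely.

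Single tRNAs were likewise not separated by the test. Of the 21 tRNAs with 20 or more summed reads, 0 were called by edgeR at an adjusted p under 0.05 (0%), 0 had an unadjusted p under 0.05, and the lowest adjusted p was 0.597. Shares were lower in OE-WT for 15 tRNAs and higher for 6, with a median log2 fold change of −0.19. This split follows the scaling: with TMM factors (0.875 and 0.982 in OE-WT, 1.204 and 0.967 in CTRL) the log2 fold changes moved by a median of 0.24, and 10 tRNAs were lower and 11 higher, with DESeq2's size factors 12 were lower and 9 higher, and with tRNA-Asp left out of the total 10 of 18 were lower and 8 higher. The split also follows 1 library, since 17 of the 21 tRNAs had their highest share in CTRL replicate 1. Without it 8 were lower and 13 higher.

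The tRNAs with the most reads had the narrowest intervals. tRNA-Asp-GTC-2-5 made up 60.2% and 55.8% of the listed reads in OE-WT and 54.3% and 55.9% in CTRL. Its log2 fold change was 0.07, with a 95% interval of −0.05 to 0.20 under this scaling, and it was 0.29 with TMM factors and 0.20 with DESeq2's size factors. tRNA-Asp-GTC-3-1 made up 26.9% and 30.8% in OE-WT and 28.4% and 30.8% in CTRL (log2 fold change −0.04, 95% interval −0.25 to 0.17). For both tRNAs the groups overlapped.

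tRNA-Glu-TTC-2-1 had 6.24% and 6.18% in OE-WT against 7.19% and 6.99% in CTRL. The groups did not overlap and each was narrow, at 6.21% ± 0.0439 in OE-WT and 7.09% ± 0.141 in CTRL (SD, n = 2 each). The log2 fold change was −0.19 (95% interval −0.49 to 0.10; edgeR adjusted p = 0.597), and with TMM factors it was 0.024, so its direction is not settled. The second glutamate tRNA, tRNA-Glu-TTC-4-1, had 1.95% and 2.30% in OE-WT and 2.75% and 2.05% in CTRL, which overlapped.

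tRNA-Gly-GCC-2-1 had 0.714% and 0.695% in OE-WT and 0.957% and 0.463% in CTRL (log2 fold change 0.0016, 95% interval −1.04 to 1.04). tRNA-Val-CAC-1-7 had 0.597% and 0.740% in OE-WT and 0.635% and 0.511% in CTRL (0.23, −0.65 to 1.10), and tRNA-Val-AAC-1-1 had 0.518% and 0.565% in OE-WT and 0.643% and 0.378% in CTRL (0.09, −0.92 to 1.11). In each of the 3 the groups overlapped. Their intervals are many times wider than that of tRNA-Asp-GTC-2-5.

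In all, 5 of the 21 tRNAs were lower in both OE-WT libraries than in both CTRL libraries (23.8%) and 1 was higher (4.76%). The lower ones were tRNA-Lys-TTT-3-1, tRNA-Gln-CTG-1-4, tRNA-Gln-TTG-3-3, tRNA-Glu-TTC-2-1 and tRNA-Asp-GTC-1-1. tRNA-Asp-GTC-1-1 had 1.16% and 0.884% in OE-WT against 1.32% and 1.18% in CTRL (log2 fold change −0.29). tRNA-Lys-TTT-3-1 had 43 and 55 reads, or 0.162% and 0.247%, in OE-WT against 66 and 70 reads, or 0.531% and 0.282%, in CTRL (log2 fold change −0.98, 95% interval −2.26 to 0.31; edgeR adjusted p = 0.597). In both of these tRNAs the gap between the closest libraries of the 2 groups was smaller than the gap between the CTRL libraries.

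tRNA-Gln-CTG-1-4 had the lowest unadjusted p of all tRNAs (0.0765 in edgeR), with 19 and 12 reads in OE-WT against 26 and 28 in CTRL and a log2 fold change of −1.31 (95% interval −2.81 to 0.19). The 1 tRNA above was tRNA-Gly-CCC-1-1, with 14 and 12 reads in OE-WT against 2 and 5 in CTRL, or 0.0529% and 0.0538% against 0.0161% and 0.0201%. Its log2 fold change was 1.49 (95% interval −0.31 to 3.30; edgeR adjusted p = 0.597), the highest of the 21, and rests on 33 reads in all. The lowest was that of tRNA-Arg-ACG-2-1, at −1.50 (95% interval −3.71 to 0.71), where 17 and 3 reads in OE-WT overlapped in share with 22 and 15 reads in CTRL.

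**Figure D2:**
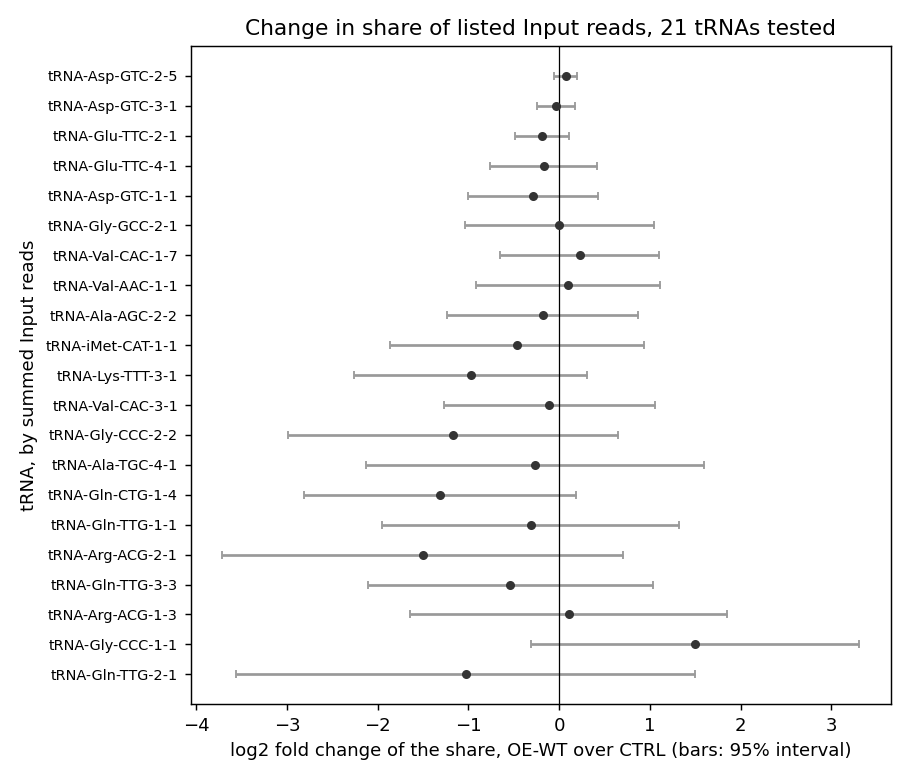
Log2 fold change of the share of listed Input reads, OE-WT over CTRL, for the 21 tRNAs tested, ordered from the most reads (top) to the fewest. Points are edgeR estimates and bars their 95% intervals. Each interval includes 0, and they widen from −0.05 to 0.20 for tRNA-Asp-GTC-2-5 to −3.56 to 1.49 for tRNA-Gln-TTG-2-1.

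The initiator tRNA, tRNA-iMet-CAT-1-1, had 97 and 69 reads in OE-WT and 88 and 60 reads in CTRL, which are shares of 0.367% and 0.310% in OE-WT and 0.708% and 0.242% in CTRL. The CTRL libraries lay on either side of both OE-WT libraries. Its log2 fold change was −0.47 (95% interval −1.87 to 0.94; edgeR adjusted p = 0.866) and was 0.49 without CTRL replicate 1. tRNA-Gly-CCC-2-2 turned in the same way, from 46 and 20 reads in OE-WT and 60 and 32 in CTRL, with −1.17 over all libraries and 0.047 without CTRL replicate 1.

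Among the tRNAs that the study names, tRNA-Ala-TGC-4-1 had 16 and 41 reads in OE-WT and 27 and 21 in CTRL (log2 fold change −0.27, 95% interval −2.13 to 1.60). tRNA-Leu-CAA-1-1 had 4 and 4 reads in OE-WT and 5 and 5 in CTRL. tRNA-Leu-CAA-2-1 had 3 and 2 reads in OE-WT and 2 and 3 in CTRL. Both had too few for the test of single tRNAs. tRNA-Glu-CTC, which the study also names, has no entry among the listed tRNAs. By the kind of amino acid carried, shares were higher in OE-WT for 1 and lower for 4 of 5 tRNAs of acidic amino acids, higher for 0 and lower for 4 of the amides, higher for 1 and lower for 2 of the basic ones and higher for 4 and lower for 4 of the small and aliphatic ones. The median log2 fold change was −0.17, −0.78, −0.98 and −0.05 in this order, beside −0.19 over all 21 tRNAs, and 0 members of any list were called.

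Because a share depends on the listed position, tRNAs of the same isotype that are listed at the same position were also set against each other, a comparison added after the data were examined. It has 10 pairs, of which 5 had 20 or more reads of the pair in each library and were tested with a quasi-binomial model, and 0 of 5 passed at an adjusted p under 0.05 (0%; 1 at an unadjusted p under 0.05). At A24, tRNA-Asp-GTC-1-1 made up 3.46% and 3.36% of its reads plus those of tRNA-Asp-GTC-2-5 in OE-WT, against 4.73% and 4.51% in CTRL. These values came from 308 and 197 reads of tRNA-Asp-GTC-1-1 in OE-WT and 164 and 294 in CTRL. The groups were separate by far more than the replicates differed, with 3.41% ± 0.0661 in OE-WT and 4.62% ± 0.160 in CTRL (SD, n = 2 each). The quasi-binomial model gave an unadjusted p of 0.0439 and an adjusted p of 0.219.

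The other pairs were less even between replicates. At A37, tRNA-Asp-GTC-3-1 made up 27.5% and 31.6% of its reads plus those of tRNA-Asp-GTC-2-5 in OE-WT and 30.5% and 32.4% in CTRL, which overlapped. At A57, tRNA-Gln-TTG-3-3 made up 44.1% and 52.0% against tRNA-Gln-CTG-1-4 in OE-WT and 35.0% and 35.7% in CTRL (adjusted p = 0.506). At A9, tRNA-Lys-TTT-6-1 made up 6.52% and 3.51% against tRNA-Lys-TTT-3-1 in OE-WT and 9.59% and 7.89% in CTRL (adjusted p = 0.506). In all, OE-WT lay below CTRL in both libraries for 2 of the 5 pairs (40%) and above for 1 (20%).

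Coverage along a tRNA was uneven, and its shape over the listed positions, which are not the same in each tRNA, differed between tRNAs. In tRNA-Asp-GTC-2-5 the reads over A37, the base next to the anticodon on its 3′ side, numbered 15919 and 12451 in OE-WT and 6757 and 13877 in CTRL. Over A9, close to the 5′ end, 21.6% and 16.9% of that number remained in OE-WT and 19.4% and 16.5% in CTRL. A14 and A24 lay between, with 54.0% and 45.5% at A24 in OE-WT and 48.9% and 44.9% in CTRL. Coverage thus fell toward the 5′ end in each of the 4 libraries, and the groups overlapped at each position. Reads over A37 that cover neither position 24 nor position 31 also fit tRNA-Asp-GTC-3-1. The number at A37, to which the other positions are set, is therefore uncertain.

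The near-copy tRNA-Asp-GTC-3-1, which is listed from A37 to A65, was almost flat from A44 on. It shares only A37 with the listed positions of tRNA-Asp-GTC-2-5, so the shapes of these tRNAs cover different stretches. Relative to A46, coverage at A44, A57 and A65 stayed between 98.9% and 100.1% in each library. At A37 it was 84.9% and 83.5% in OE-WT and 83.9% and 87.0% in CTRL. At A65, 99.97% and 99.90% in OE-WT lay above 99.58% and 99.48% in CTRL, a gap of less than 1 percentage point. The A57 of this tRNA is its A58, and no step in coverage was seen across it in either condition. The bases that set this tRNA apart from tRNA-Asp-GTC-2-5, at positions 24 and 31, lie on the 5′ side of all these adenosines. A read that does not reach them fits both tRNAs, so the profile cannot be assigned to tRNA-Asp-GTC-3-1 alone.

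tRNA-Glu-TTC-2-1 fell toward its 5′ end as well. At A5 it had 20.6% and 15.3% of the reads at A37 in OE-WT against 12.4% and 13.9% in CTRL. Both OE-WT libraries were above both CTRL libraries. Within-tRNA testing with edgeR's diffSpliceDGE gave a natural-log fold change of 0.27 (adjusted p = 0.999). This value is relative to all listed positions of the tRNA and not to A37. tRNA-Gly-GCC-2-1 showed the opposite order, with 12.2% and 3.23% of the reads at A3 relative to A56 in OE-WT against 15.1% and 18.3% in CTRL. The low value rests on 5 reads at A3 in OE-WT replicate 2, next to 23 in OE-WT replicate 1 and 18 and 21 in CTRL.

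In the initiator tRNA, coverage fell toward the 3′ end in each library, as it also did between A57 and A69 of tRNA-Gln-TTG-3-3. From A49 with 97 and 69 reads in OE-WT and 88 and 60 in CTRL, 86.6% and 84.1% remained at A57, its A58, in OE-WT against 72.7% and 71.7% in CTRL. At A62, 35.1% and 55.1% remained in OE-WT and 45.5% and 43.3% in CTRL. The groups were apart at A57, with 85.3% ± 1.80 in OE-WT and 72.2% ± 0.750 in CTRL (SD, n = 2 each; exact permutation test, two-sided, p = 0.33), and overlapped at A62. In diffSpliceDGE the natural-log fold change at A57, relative to all listed positions of this tRNA, was 0.11 (adjusted p = 0.999).

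The directly adjacent positions of tRNA-Val-AAC-1-1 and of tRNA-Gln-CTG-1-4 had nearly equal reads. At A59 of tRNA-Val-AAC-1-1, 97.8% and 89.7% of the reads at A60 were found in OE-WT and 92.5% and 95.7% in CTRL. At A57 of tRNA-Gln-CTG-1-4, the 19 and 12 reads in OE-WT and 26 and 27 reads in CTRL differed by no more than 1 read from those at A56.

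**Figure D3:**
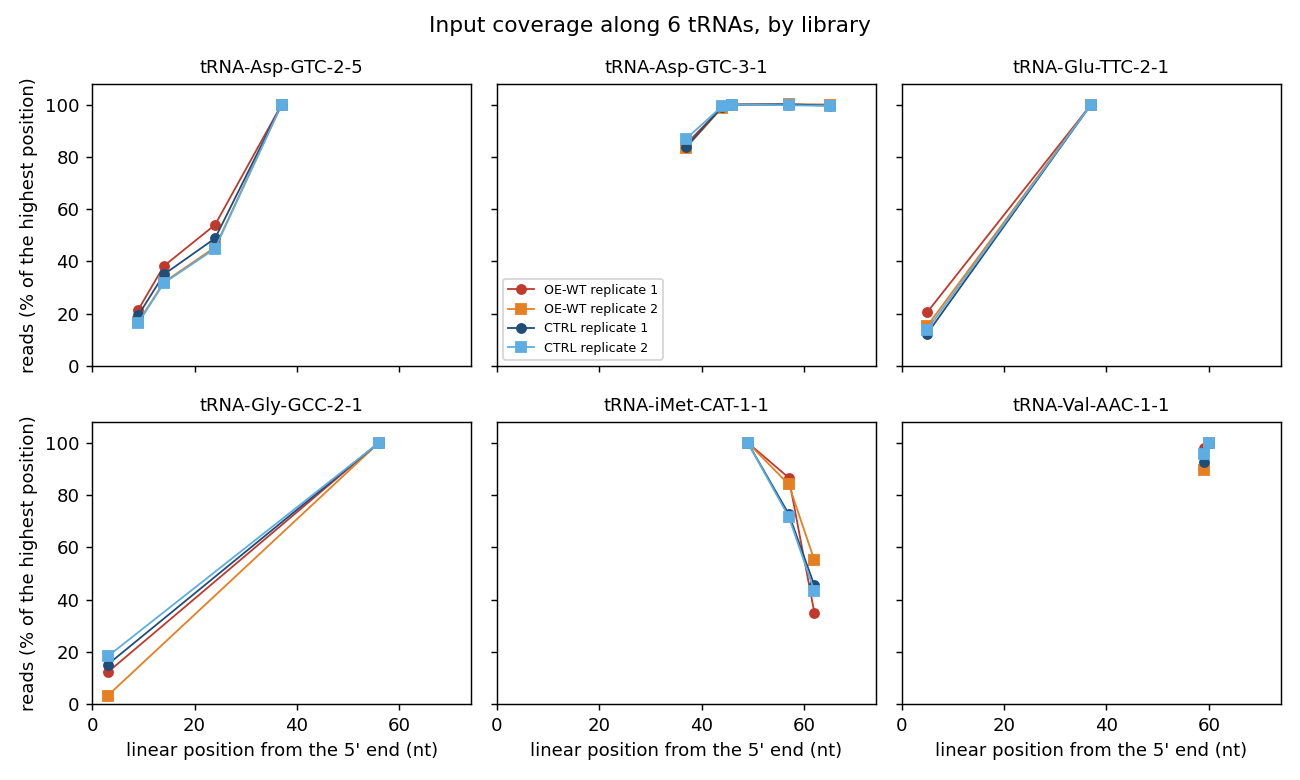
Input reads at each listed adenosine as a percentage of the reads at the position with the highest summed count, against the linear position from the 5′ end (nt), for 6 tRNAs and with 1 line per library (OE-WT red and orange, CTRL dark and light blue). tRNA-Asp-GTC-2-5 falls to between 16.5% and 21.6% at A9, tRNA-Asp-GTC-3-1 is flat from A44 on, and tRNA-iMet-CAT-1-1 falls toward the 3′ end.

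Over all tRNAs with more than 1 listed position, 22 positions in 8 tRNAs were tested and 0 were called by diffSpliceDGE at an adjusted p under 0.05 (0%; 0 at an unadjusted p under 0.05; lowest adjusted p = 0.999). Relative to the highest position, both OE-WT libraries were above both CTRL libraries at 4 of 14 positions (28.6%) and below at 2 of 14 (14.3%). Besides those given above, the positions were A69 of tRNA-Gln-TTG-3-3 (above, from no more than 9 reads in a library) and A44 of tRNA-Asp-GTC-3-1 (below). The log2 ratio of the 3′-most to the 5′-most position, averaged over 6 tRNAs, was 1.05 and 1.61 in OE-WT and 1.22 and 1.16 in CTRL (1.33 ± 0.399 in OE-WT and 1.19 ± 0.0422 in CTRL; SD, n = 2 each; exact permutation test, two-sided, p = 1). The difference of 0.14 was −0.14 without OE-WT replicate 2, so its direction rests on that library. By tRNA, the difference was 1.36 in tRNA-Gly-GCC-2-1, where OE-WT replicate 2 had 5 reads at A3, and between −0.43 and 0.03 in the other 5 tRNAs.

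Mismatch rates, the share of reads at an adenosine that carried another base, were recomputed from the counts at the 24 adenosines with 20 or more reads in each library. Rates ranged widely between adenosines. Averaged over the 24 adenosines, the rate was 8.59% and 8.33% in OE-WT and 7.60% and 8.69% in CTRL, or 8.46% ± 0.181 in OE-WT and 8.14% ± 0.772 in CTRL (SD, n = 2 each; exact permutation test, two-sided, p = 1). Of the 23 that had a mismatch in any library, 0 passed the quasi-binomial test at an adjusted p under 0.05 (0%; 0 at an unadjusted p under 0.05; lowest adjusted p = 0.829). That test takes the spread of each adenosine from 2 libraries per condition, with a dispersion of at least 1. A difference must then be very large to pass over 23 adenosines, so rates not called were not shown to be equal.

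The highest rate in each library was at A9 of tRNA-Asp-GTC-2-5, a position that TRMT10B, another methyltransferase, is known to convert to m1A in human tRNA-Asp. There, 54.0% and 53.3% of the reads were mismatched in OE-WT and 49.6% and 54.8% in CTRL. The difference of the summed reads was 0.857 percentage points, with a 95% Newcombe interval of −1.24 to 2.95. A14 of the same tRNA had 16.1% and 17.3% in OE-WT against 13.8% and 15.9% in CTRL, where the groups did not overlap by a margin smaller than the gap between the CTRL libraries. At A5 of tRNA-Glu-TTC-2-1 the rate was 10.6% and 9.48% in OE-WT and 7.21% and 14.9% in CTRL, so that both OE-WT libraries lay between the CTRL libraries.

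Among the A58 positions, the one in tRNA-Gly-GCC-2-1 had the highest rate, at 24.3% and 24.5% in OE-WT against 21.0% and 22.6% in CTRL. Both OE-WT libraries were above, with a difference of 2.62 percentage points in the summed reads (95% Newcombe interval −4.50 to 9.42; adjusted p = 0.829). A58 of tRNA-Glu-TTC-4-1 was also higher in both OE-WT libraries, at 6.96% and 6.25% against 3.80% and 5.12% in CTRL (2.02 points, −0.0984 to 4.10; adjusted p = 0.829). A58 of the initiator tRNA had 15.5% and 10.3% in OE-WT and 10.9% and 16.3% in CTRL, A58 of tRNA-Ala-AGC-2-2 had 3.70% and 9.18% in OE-WT and 3.33% and 11.0% in CTRL, and A58 of tRNA-Asp-GTC-3-1 had 2.87% and 2.52% in OE-WT and 2.83% and 2.32% in CTRL. In these last tRNAs the groups overlapped. Of the 5 A58 positions tested, 3 had a higher mean rate in OE-WT and 2 a lower one, with a median difference of 0.12 percentage points, beside −0.03 over all 23 adenosines.

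At the base next to the anticodon, mean rates were lower in OE-WT in each of the 3 tRNAs tested, beside 12 of all 23 adenosines. Of these tRNAs, tRNA-Asp-GTC-2-5 and tRNA-Asp-GTC-3-1 are near-copies. Reads over A37 that cover neither position 24 nor position 31 fit both, so they are not separate cases. At A37 of tRNA-Glu-TTC-2-1, 13.9% and 14.5% of the reads were mismatched in OE-WT against 17.2% and 18.9% in CTRL, from 230 of 1651 and 200 of 1377 reads in OE-WT and 154 of 894 and 328 of 1736 reads in CTRL. Both OE-WT libraries were lower, and the rate of the summed reads, OE-WT minus CTRL, differed by −4.13 percentage points (95% Newcombe interval −6.07 to −2.20). The quasi-binomial test, which rests on the 2 libraries of each group, gave an unadjusted p of 0.0522 and an adjusted p of 0.829. With the dispersion moderated over adenosines, the adjusted p was 0.0215, and this was the only 1 of 23 adenosines called (4.35%).

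At A37 of tRNA-Asp-GTC-3-1 the rate was 13.4% and 12.7% in OE-WT and 13.4% and 13.9% in CTRL. At A37 of tRNA-Asp-GTC-2-5 it was 5.98% and 6.51% in OE-WT and 6.38% and 6.85% in CTRL. The means were lower in OE-WT by 0.602 and 0.369 percentage points, but the libraries overlapped. In tRNA-Asp-GTC-1-1, the rate at A24 was 4.55% and 5.08% in OE-WT against 6.10% and 8.16% in CTRL (adjusted p = 0.829). The share of this tRNA, taken at the same position, was also lower in OE-WT. tRNA-Asp-GTC-3-1 has G at position 24, so a read of it placed on tRNA-Asp-GTC-1-1 would count as a read and as a mismatch. The rate and the share can thus rest on the same reads, and the placement of reads was not tested.

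**Figure D4:**
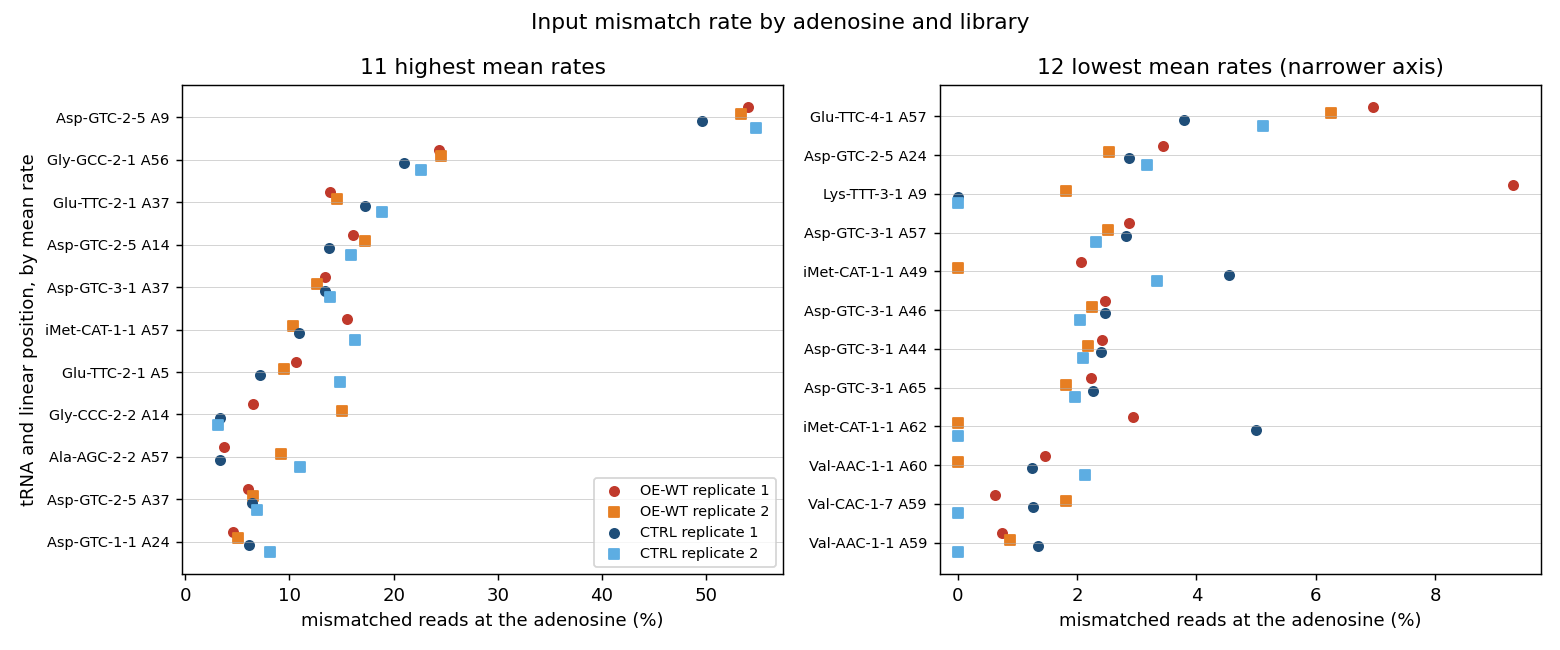
Input mismatch rate (%) at the 23 adenosines with 20 or more reads in each library and a mismatch in any, with 1 point per library, OE-WT above CTRL within each row. The left panel holds the 11 with the highest mean rate and the right panel, on a narrower axis, the other 12. A9 of tRNA-Asp-GTC-2-5 lies between 49.6% and 54.8%, and at A37 of tRNA-Glu-TTC-2-1 both OE-WT points (13.9% and 14.5%) lie left of both CTRL points (17.2% and 18.9%).

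Several of the largest differences rest on few mismatched reads. A9 of tRNA-Lys-TTT-3-1 had 4 of 43 and 1 of 55 reads mismatched in OE-WT and 0 of 66 and 0 of 70 in CTRL, where a count of 0 over both CTRL libraries allows a rate of up to 2.21%. A14 of tRNA-Gly-CCC-2-2 had 3 of 46 and 3 of 20 reads mismatched in OE-WT against 2 of 60 and 1 of 32 in CTRL. In the initiator tRNA, A49 had 2 of 97 and 0 of 69 in OE-WT against 4 of 88 and 2 of 60 in CTRL. None of these 3 positions passed the test (adjusted p = 0.829 for each).

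Both OE-WT libraries were above both CTRL libraries at 5 of 23 adenosines (21.7%) and below at 3 (13%). The mean rate was higher in OE-WT at 11 and lower at 12, and differed by less than 1 percentage point at 12. In the part from position 50 on, which holds the T loop and also bases outside it, the mean rate was higher at 5 and lower at 5 of 10. In the middle part it was higher at 2 and lower at 4, and in the 5′ part, up to position 25, higher at 4 and lower at 3. The 10 adenosines of tRNA-Asp-GTC were likewise even, with 5 higher and 5 lower, and the 3 of the initiator tRNA had lower mean rates in OE-WT without passing the test. At A57 of the initiator tRNA the summed reads gave the other direction, with a difference of 0.296 percentage points.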

How the data were processed

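Small RNA of DLD1 cells was enriched, de-aminoacylated and sequenced by the authors, who trimmed reads with cutadapt 1.9.3 and aligned them with Bowtie2 to a tRNA library in which isoforms of identical score were merged. Other versions, how mismatches were called and how sites were chosen are not given in the sources used here. The authors deposited, for each listed adenosine and library, the count of covering reads and the count of mismatched reads, not normalized, and the mismatch rate as a fraction. The rate recomputed from the counts differed from the deposited one by at most 4.9e-13. The 32 other value columns (enriched libraries and ratios made from them) were not used. Statements cover the 44 sites analysed.

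Reads of 1 position per tRNA (the highest summed count) were tested with edgeR 4.0.16 (quasi-likelihood, total of these positions as library size, 20 or more summed reads) by tRNA, isotype and anticodon, and coverage within tRNAs with diffSpliceDGE. Counts from different positions can hold the same read. Mismatched reads were tested per adenosine with a quasi-binomial model (dispersion of at least 1, F test). Tests were two-sided, with Benjamini-Hochberg adjustment over all features and a threshold of 0.05. Coverage ratios used an offset of 0.5 reads. Shares have exact Clopper-Pearson 95% intervals, and limits for a count of 0 use 3 reads. PCR copies are not told apart. Alternatives were TMM factors, DESeq2 1.42.0, limma 3.58.1 on logit rates, Fisher's exact test on summed reads, other minimums, positions and offsets, a total without tRNA-Asp, a replicate block and leaving out each library. Tests were checked on simulated data, in which mismatch rates had no extra spread between libraries and positions shared no reads. The check therefore does not cover these features of the data. R 4.3.3, Python 3.11.15 and matplotlib 3.10.9 were used.

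The libraries, lists and tests were chosen with earlier results of these data known. Named were features past the threshold, the 8 tRNAs with the highest share, the 5 largest changes each way, each isotype, tRNAs with 2 or more listed positions, the 8 adenosines with the highest rate and the 3 largest differences each way, A58 positions, the study's tRNAs and the initiator. Other features were named after their values were seen. Replicates were not copies of each other, since their reads were spread differently over the tRNAs (chi-square 177 in OE-WT and 246 in CTRL, 21 degrees of freedom each).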

Additional observations from a re-analysis of the deposited data

How the results depend on the processing

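No isotype, anticodon, tRNA or position in a tRNA was called under any of the alternatives run, and the calls of mismatch rates changed under 2: moderating the dispersion over adenosines and Fisher's exact test on summed reads each called 1 adenosine, A37 of tRNA-Glu-TTC-2-1 (adjusted p = 0.0215 and 0.000693, differences −3.83 and −4.13 percentage points). Fisher's test treats reads as independent and leaves out the spread between libraries. Without CTRL replicate 2, 4 of 21 tRNAs and 4 of 11 isotypes had an unadjusted p under 0.05 in edgeR (lowest adjusted p = 0.218 and 0.110). With the replicate number as a block, 0 tRNAs, isotypes, anticodons, positions and adenosines were called, as without it. Whether same-numbered libraries form pairs is not known, since the labels state no shared origin and only 2 pairs exist. Same-numbered libraries deviated together in tRNA shares (r = 0.46 across 13 tRNAs) and hardly in mismatch rates (r = 0.0592 across 23 adenosines), which are across features and not independent replicates. The reads per tRNA limit the precision: the median was 19 and 18 in OE-WT and 26 and 21 in CTRL.

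Directions of uncalled log2 fold changes turned with the scaling. With TMM factors they were 0.16 for tRNA-Asp-GTC-3-1, 0.024 for tRNA-Glu-TTC-2-1, 0.057 for tRNA-Glu-TTC-4-1, 0.034 for tRNA-Ala-AGC-2-2, 0.13 for tRNA-Val-CAC-3-1 and 0.0056 for isotype Gly. With DESeq2 they were 0.080 for tRNA-Asp-GTC-3-1, 0.0062 for tRNA-Glu-TTC-4-1, 0.077 for tRNA-Val-CAC-3-1, and 0.12 for Glu, 0.26 for Gly, 0.16 for Ala and 0.030 for iMet as isotypes. With tRNA-Asp left out of the total they were 0.037 for tRNA-Glu-TTC-4-1, 0.017 for tRNA-Ala-AGC-2-2, 0.11 for tRNA-Val-CAC-3-1, and 0.0070 for Glu, 0.060 for Gly and 0.0029 for Ala as isotypes. Isotypes were lower in OE-WT in 8 of 11 cases, and in 7 with TMM factors, 4 with DESeq2 (a median shift of 0.38), 5 of 10 without tRNA-Asp and 4 without CTRL replicate 1. tRNA-Gly-GCC-2-1 was at −0.089 with the mean over its positions and −0.0020 with its 3′-most position. The mismatch difference at A57 of tRNA-iMet-CAT-1-1 was 0.296 percentage points in summed reads. The causes were not tested.

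Leaving out each library in turn, log2 fold changes ranged from −0.14 to 0.058 for tRNA-Asp-GTC-3-1, −0.37 to 0.054 for tRNA-Glu-TTC-4-1, −0.44 to 0.61 for tRNA-Gly-GCC-2-1, −0.25 to 0.52 for tRNA-Val-AAC-1-1, −0.47 to 0.055 for tRNA-Ala-AGC-2-2, −1.06 to 0.49 for tRNA-iMet-CAT-1-1, −0.38 to 0.19 for tRNA-Val-CAC-3-1, −1.85 to 0.047 for tRNA-Gly-CCC-2-2 and −1.28 to 0.50 for tRNA-Ala-TGC-4-1. For isotypes they ranged from −0.14 to 0.40 for Val, −0.71 to 0.54 for Gly, −0.64 to 0.13 for Ala, −1.06 to 0.49 for iMet and −1.34 to 0.15 for Arg. The mismatch difference ranged from −1.13 to 4.09 percentage points at A9 of tRNA-Asp-GTC-2-5, −3.37 to 1.97 at A57 of tRNA-iMet-CAT-1-1, −4.84 to 2.83 at A5 of tRNA-Glu-TTC-2-1, −4.55 to 3.11 at A57 of tRNA-Ala-AGC-2-2 and −0.13 to 0.37 at A57 of tRNA-Asp-GTC-3-1. The difference in the mean log2 ratio of coverage ranged from −0.14 (without OE-WT replicate 2) to 0.42, and that in the mean mismatch rate from −0.227 (without CTRL replicate 1) to 0.865 percentage points. Where a group was left with 1 library, that library was assumed to vary like the other group.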
